A study of Mus musculus with 12 samples.

Results

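The genes described here are the cyclins, the cyclin-dependent kinases (CDKs), the CDK inhibitors and the Cdc25 phosphatases. They were the 48 of 14398 genes in the count table whose symbol was that of a cyclin (Ccn and a letter, with or without a number), a numbered Cdk, a Cdkn inhibitor or Cdc25a, b or c. By role, 5 were D-type cyclins and G1 kinases, 5 acted at G1/S and in S phase, 6 at G2/M, 3 were CIP/KIP and 4 INK4 inhibitors, 13 were transcriptional, and 12 were atypical or of other function. Ccna1, Ccnb3, Cdk3, Cdk15 and Cdk18 were not analysed here.

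The messenger RNA came from adipocyte precursor cells, stromal cells of fat tissue that can become fat cells. All groups were male C57Bl6/J mice aged 6 to 8 weeks, with no genetic change named. The 4 groups, of 3 libraries each, were perigonadal (VWAT) and inguinal subcutaneous (SWAT) fat on standard diet (SD, labelled day 0) and on a high-fat diet of 60% lard (HFD, labelled day 3). They are called VWAT_SD, VWAT_HFD, SWAT_SD and SWAT_HFD. Every library pooled tissue of 3 mice, and the sort took CD45-/CD31- cells that carried CD29, CD34 and Sca1, whether CD24 was present or absent. The diet and the labelled day cannot be told apart.

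The cell cycle is driven by kinases that act only when bound to a cyclin. D-type cyclins with Cdk4 or Cdk6 start the phosphorylation of the retinoblastoma protein and so free E2F factors, cyclin E with Cdk2 carries cells into S phase, and cyclin A and then cyclin B with Cdk1 carry them through G2 and mitosis. INK4 inhibitors block Cdk4 and Cdk6, CIP/KIP inhibitors bind cyclin-CDK complexes, and Cdc25 phosphatases remove the phosphates that hold CDKs inactive. A separate group of cyclins and CDKs acts on RNA polymerase II and on the Mediator complex, not on division. In adult fat most precursor cells are out of cycle, and division of precursors comes before the growth of new fat cells.

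Promoter windows are shown for 4 G2/M genes that rose with HFD (below) and for Cdk4, a G1 kinase with a smaller rise, so that the motif letters can be seen beside each other. Each window runs from 250 bases before to 50 bases after the start site in RefSeq (build GRCm38.p6) and is written 5′ to 3′ on the strand of the gene. Capitals mark matches, on either strand, to the CHR element (TTTGAA or TTCGAA), the CCAAT box (CCAAT) and the E2F motif (written TTCCCGC, or with TTGGCGC, or with TTCGCGC, or with TTGCCGC). The CHR element and the CCAAT box are known from promoters of genes that peak in G2 and mitosis, and E2F motifs from those that peak at G1/S. The windows lie at chr13:100786437-100786736 (minus strand) for Ccnb1, chr9:70421505-70421804 (minus) for Ccnb2, chr10:69352863-69353162 (minus) for Cdk1, chr17:24251360-24251659 (minus) for Ccnf and chr10:127063285-127063584 (plus) for Cdk4.
Ccnb1: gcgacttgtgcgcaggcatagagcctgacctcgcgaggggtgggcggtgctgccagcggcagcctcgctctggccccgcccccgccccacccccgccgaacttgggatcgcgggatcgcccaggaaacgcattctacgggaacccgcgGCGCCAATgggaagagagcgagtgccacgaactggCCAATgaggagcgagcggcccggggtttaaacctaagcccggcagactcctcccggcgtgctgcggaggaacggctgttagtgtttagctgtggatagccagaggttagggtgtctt
Ccnb2: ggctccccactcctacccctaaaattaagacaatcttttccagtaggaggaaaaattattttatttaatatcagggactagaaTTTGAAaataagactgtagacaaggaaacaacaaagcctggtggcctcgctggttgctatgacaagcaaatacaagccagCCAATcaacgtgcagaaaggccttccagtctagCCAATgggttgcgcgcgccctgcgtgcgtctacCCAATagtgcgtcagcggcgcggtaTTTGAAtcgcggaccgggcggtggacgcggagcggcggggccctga
Cdk1: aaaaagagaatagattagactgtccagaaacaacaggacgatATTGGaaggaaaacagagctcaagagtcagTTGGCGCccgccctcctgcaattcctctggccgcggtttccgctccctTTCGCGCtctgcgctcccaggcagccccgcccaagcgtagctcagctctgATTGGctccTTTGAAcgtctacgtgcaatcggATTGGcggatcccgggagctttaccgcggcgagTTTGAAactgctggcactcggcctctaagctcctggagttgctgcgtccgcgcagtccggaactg
Ccnf: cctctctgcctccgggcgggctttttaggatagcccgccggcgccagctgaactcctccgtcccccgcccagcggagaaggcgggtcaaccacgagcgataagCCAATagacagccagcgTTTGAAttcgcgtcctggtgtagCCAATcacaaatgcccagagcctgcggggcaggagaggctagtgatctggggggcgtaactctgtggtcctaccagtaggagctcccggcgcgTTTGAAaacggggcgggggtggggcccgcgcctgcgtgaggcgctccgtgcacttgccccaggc
Cdk4: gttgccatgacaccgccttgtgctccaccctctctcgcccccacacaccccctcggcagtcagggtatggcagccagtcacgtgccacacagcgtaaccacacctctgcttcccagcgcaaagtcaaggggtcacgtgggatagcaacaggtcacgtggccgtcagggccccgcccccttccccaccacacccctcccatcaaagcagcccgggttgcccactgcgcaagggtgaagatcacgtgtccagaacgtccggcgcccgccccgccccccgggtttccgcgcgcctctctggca

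Cdk1 held 2 CHR matches, 71 and 15 bases upstream of the start, 3 CCAAT boxes and 2 E2F matches, at 178 and 130 bases upstream. Ccnb2 held 3 CCAAT boxes, 87, 54 and 21 bases upstream, and CHR matches 167 bases upstream and 5 downstream. Ccnf held CHR matches 130 and 14 bases upstream and CCAAT boxes at 147 and 107. Ccnb1 held CCAAT boxes 99 and 67 bases upstream, the farther of which shares bases with its E2F match, and no CHR letters. The Cdk4 window held none of the 3 motifs. Windows were found for 37 of the 48 genes, 42 windows in all, and there was no entry for Ccna2, Ccnd1, Ccnd2, Ccne2, Ccnh, Ccny, Cdc25c, Cdk17, Cdk19, Cdk5 and Cdkn1c. Over the 5 G2/M windows, 4 (80%) held a CHR match and 5 (100%) a CCAAT box, and 4 held both. In all 32851 windows of the table these shares were 19.2%, 37.4% and, for both, 7.52%. E2F letters stood in 2 of 3 G1/S and S phase windows (66.7%), those of Cdc25a and Cdk2, against 9.57% of all windows. They also stood in 2 of 5 G2/M (40%), 2 of 6 INK4 (33.3%) and 2 of 11 transcriptional windows (18.2%). The D-type, CIP/KIP and atypical windows held 0. Among the 11 windows of transcriptional genes, 0 held a CHR match and 5 (45.5%) a CCAAT box. Outside the G2/M group, CHR matches stood in windows of Ccni, Cdk16 and Cdkn2b. Over all 42 windows of the members, 7 (16.7%) held a CHR match, beside the 19.2% of all windows. A match is a description of the letters and does not show that a factor was bound.

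**Figure D1:**
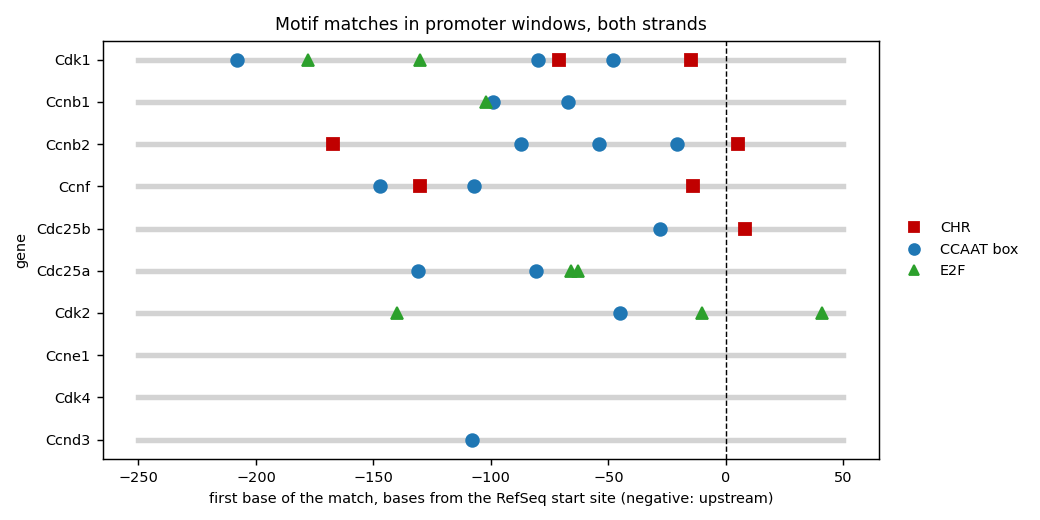
Motif matches along the promoter windows of 10 cell cycle genes. The horizontal axis is the distance of the match from the RefSeq start site in bases, each grey bar is 1 window, and squares, circles and triangles mark CHR, CCAAT box and E2F matches. CHR squares lie in the windows of Cdk1, Ccnb2, Ccnf and Cdc25b and in none of the other 6 windows drawn.

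The libraries held 17630284 to 56094076 counts on genes. Levels are given as CPM, counts per 1000000 counts after TMM scaling, in replicates 1, 2 and 3 of a group in that order. Each comparison used the quasi-likelihood F test of edgeR on the 14266 genes that a filter on low counts left. A gene "passed", "rose" or "fell" when its Benjamini-Hochberg adjusted p was under 0.05, and a value after ± in a log2 change is its standard error. The fold of a fall is given as a size above 1. In bulk RNA, fewer cells of a type and less RNA per cell cannot be told apart. The gate markers Cd34, Ly6a (which encodes Sca1) and Itgb1 (CD29) were high in every library, from 386 to 1630 CPM, and Ptprc, which encodes CD45, was at 0.129 to 0.656 CPM in 11 libraries. SWAT_HFD replicate 2 stood apart with Ptprc at 6.93 CPM and a summed level of 7 leukocyte markers of 43.1 CPM, against 13.2 and 16.1 CPM in the other SWAT_HFD libraries. VWAT_HFD replicate 3 also stood apart. Its endothelial gene Cdh5 was at 1.10 CPM, against 12.5 and 7.81 in replicates 1 and 2, and its Mki67, a marker of dividing cells, was at 32.4 CPM against 61.0 and 114. Tek, another endothelial gene, did not set it apart, at 181 CPM against 190 and 173.

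**Figure D2:**
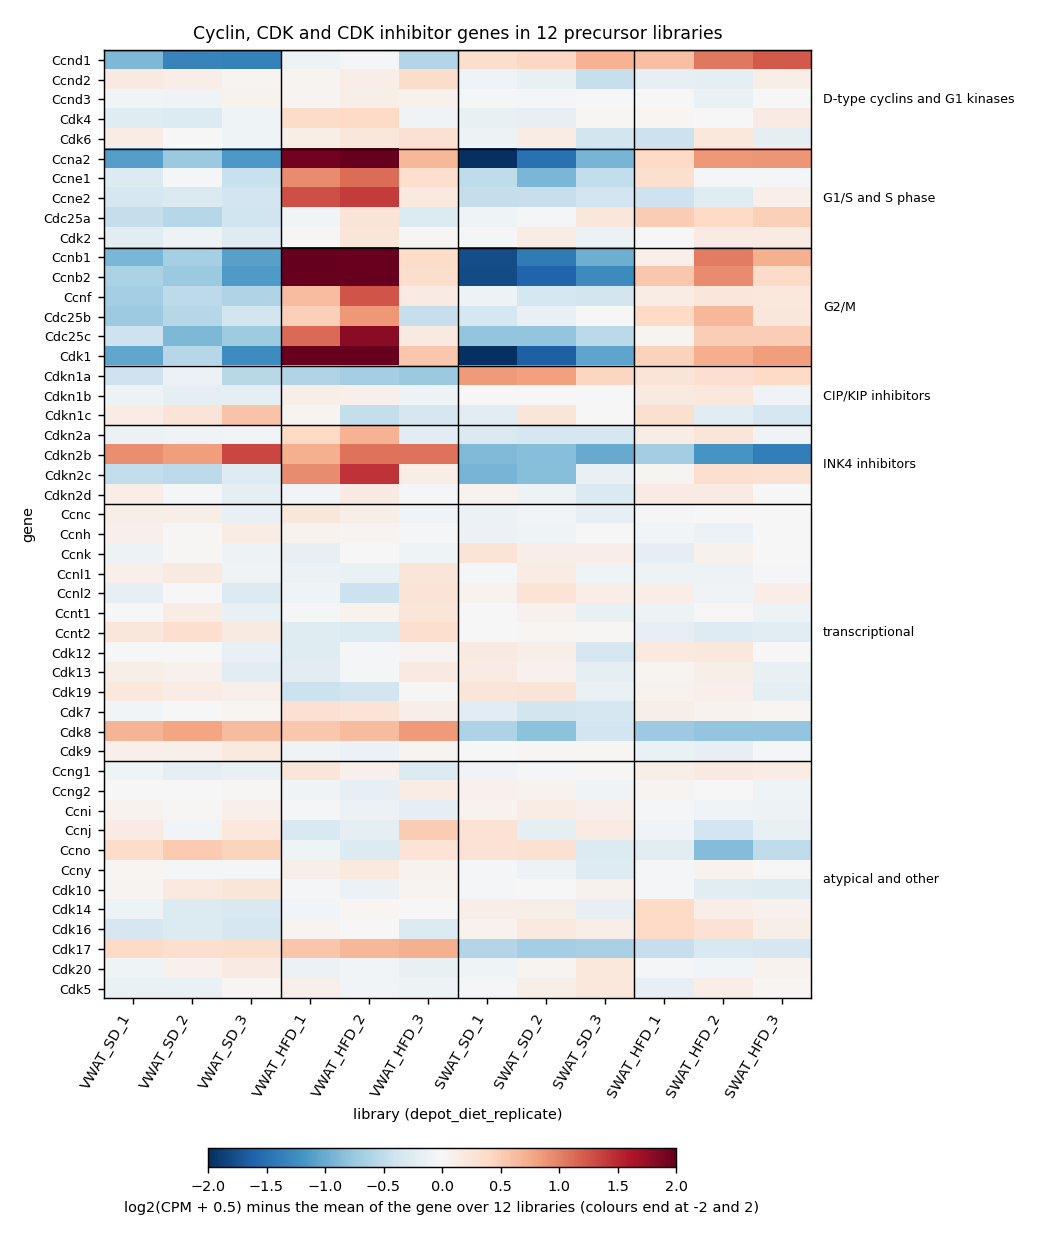
Level of each of the 48 genes in the 12 libraries. Columns are libraries and rows are genes grouped by role, and colour is the log2 of CPM plus 0.5 minus the mean of the gene over the libraries, with colours ending at -2 and 2. Ccna2, Ccnb1, Ccnb2 and Cdk1 are above their mean in all 6 HFD libraries and below it in all 6 SD libraries, while Cdk8, Cdk17, Cdkn2b and Cdkn1a part the depots.

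Ccna2, Ccnb1, Ccnb2 and Cdk1, which act in S phase, G2 and mitosis, rose with HFD in both depots, and most transcriptional and atypical members had no call. In VWAT 14 of the 47 members tested rose and 0 fell (29.8%), where 15.6% of all genes passed (8.64% higher, 6.98% lower). The 14 were all 6 G2/M genes, 4 of 5 G1/S and S phase genes, Ccnd1, Cdk4, Cdkn2c and Cdk17. In VWAT DESeq2 called 16 members higher and 3 lower, and limma voom 14 and 2, with 2777 and 2458 genes called in all. The lower calls were Cdkn1c and Cdk19 in both and Ccni in DESeq2. In SWAT 5 rose and 0 fell (10.6%), where 1.11% of all genes passed (0.967% higher, 0.147% lower), and these were Ccna2, Ccnb1, Ccnb2, Cdk1 and Cdk7. Averaged over the depots 15 rose and 3 fell, where 19.2% of all genes passed (10.5% higher, 8.78% lower), and the 3 that fell were Cdkn1a, Ccni and Ccno. The average takes VWAT and SWAT libraries as independent, and a fit with pools of mice as a block was not run for it. If the depots share mice, its p-values may be too small, also for these 3 genes, which passed in neither depot alone. Between the depots, 4 members were higher and 4 lower in VWAT on SD, where 25.7% of all genes passed (13.2% and 12.5%), and 9 were higher and 4 lower on HFD, where 26.8% did (13.4% in each direction). The depot shares of 17% and 27.7% of the members were thus below and near those of all genes. Counted only by libraries without overlap, 18 members were higher and 6 lower on HFD in VWAT, where 33% of all genes had no overlap, and 15 and 5 in SWAT, where 21.8% had none. Between the depots 13 were higher and 10 lower in VWAT on SD, where 45.1% of all genes had no overlap, and 6 and 6 on HFD, where 36% had none.

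These counts moved with the libraries. Without VWAT_HFD replicate 3, 24 members passed in VWAT (20 higher, 4 lower), 11 in SWAT, 28 in the average and 15 between the depots on SD. The calls over all genes moved with them, from 2228 to 4266 in VWAT, from 159 to 615 in SWAT, from 2745 to 4644 in the average and from 3669 to 4411 between the depots on SD. Members that gained a VWAT call without that library were Cdk16 (log2 change 0.35, edgeR adjusted p = 0.0127), Ccng1 (0.31, 0.0108), Cdk2 (0.34, 0.0333), Cdk7 (0.29, 0.0129) and Cdkn1b (0.26, 0.0478) as higher, and Ccnt2 (-0.51, 0.00046), Cdk19 (-0.57, 0.0042), Ccno (-0.69, 0.0257) and Cdk9 (-0.23, 0.0391) as lower. In SWAT the gains were Cdc25c (edgeR adjusted p = 0.00786), Cdkn2c (0.0242), Ccne1 (0.0379) and Cdc25b (0.0401) as higher and Ccno (0.0464) as lower. Cdkn2a, which the filter kept in that fit, made up the rest (edgeR adjusted p = 0.00482 in VWAT and 0.0204 in SWAT, both higher). In SWAT 0 members passed without any 1 of the 6 SWAT libraries (0 to 98 genes in all), and 1, 2 and 2 without VWAT_SD replicate 1, 2 or 3 (66, 80 and 79 genes), which enter through the shared estimate of the spread. Between the depots on HFD 7 passed without VWAT_HFD replicate 1 or SWAT_HFD replicate 2 or 3, and 8 without SWAT_HFD replicate 1, with 2852 to 3673 genes called in all. Scaling by library size alone, under which all genes had a median log2 change of -0.126 (VWAT diet), -0.177 (SWAT diet), -0.15 (average), 0.236 (depots on SD) and 0.301 (depots on HFD), gave other splits. They were 11 higher and 4 lower in VWAT, 12 and 11 in the average, 13 and 2 between the depots on SD, and 27 and 2 on HFD, where 2621, 4617, 5397 and 6954 of all 14266 genes passed. Under that scaling the diet calls of Cdc25a, Cdk4 and Cdk17 in VWAT, of Cdk7 in SWAT and of Cdk4, Cdk7 and Cdk17 in the average ended, as did the depot calls of Cdc25a and Cdk16 on both diets.

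**Figure D3:**
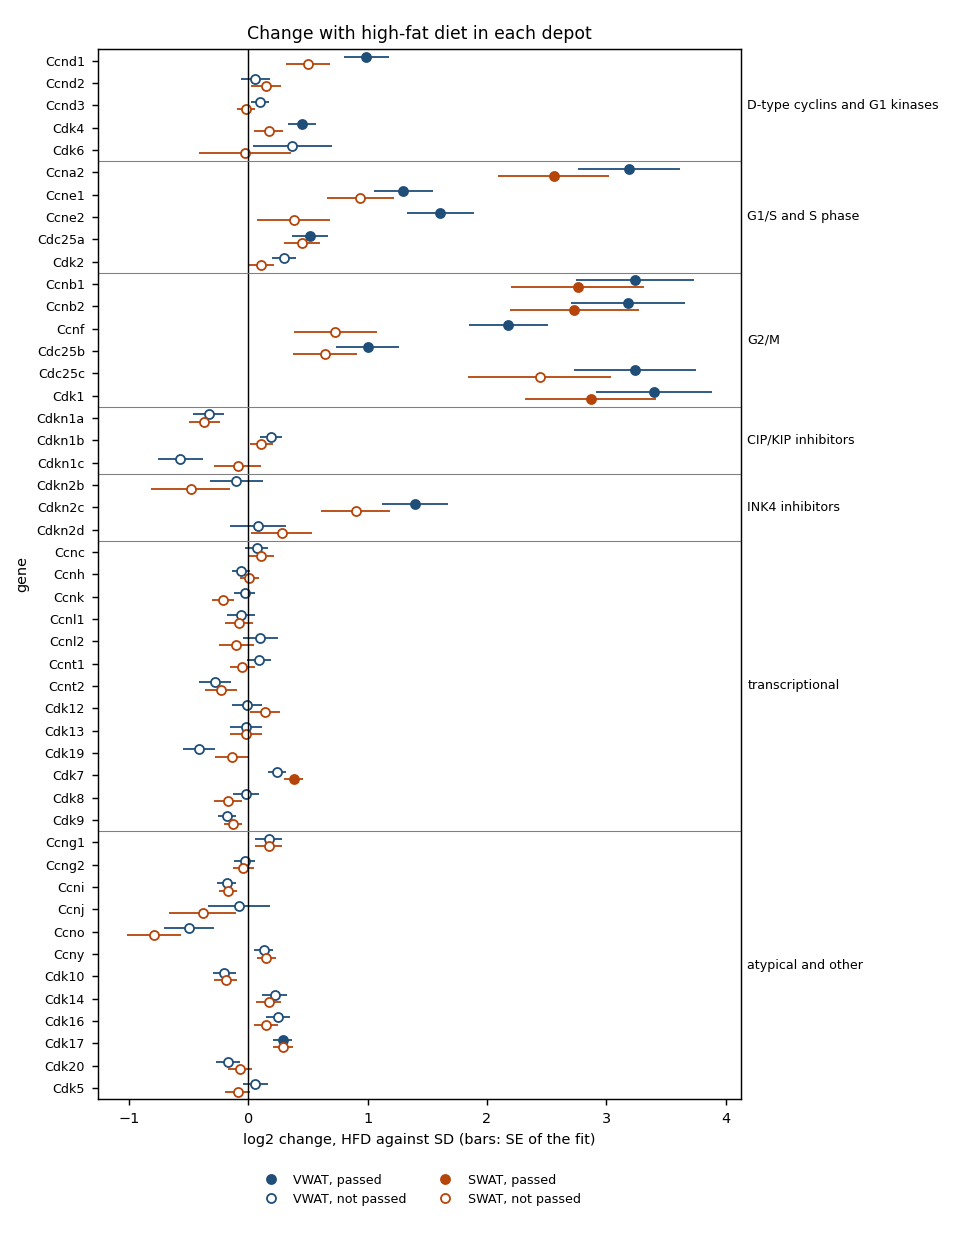
Change with HFD in each depot for the 47 genes tested. The horizontal axis is the log2 change of HFD against SD with bars of 1 standard error, blue for VWAT and orange for SWAT, and filled points passed the test. The G2/M genes Cdk1, Ccnb1, Ccnb2 and Cdc25c lie above a log2 change of 2 in both depots, and the transcriptional genes lie near 0.

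Of the D-type cyclins, which link growth signals to Cdk4 and Cdk6, Ccnd1 changed with diet and differed between the depots. Ccnd1 was at 13.3, 9.75 and 9.58 CPM in VWAT_SD, 23.6, 24.6 and 16.7 in VWAT_HFD, 32.5, 34.0 and 41.3 in SWAT_SD and 38.6, 53.2 and 60.0 in SWAT_HFD. Every HFD library of VWAT lay above every SD library, and every SWAT library above every VWAT library. Ccnd1 rose 1.98-fold in VWAT (log2 change 0.99 ± 0.19, edgeR adjusted p = 0.00501). In SWAT the diet groups overlapped and Ccnd1 did not pass, at a 1.42-fold higher level (log2 change 0.50 ± 0.186, edgeR adjusted p = 0.229). On SD it was 3.29-fold lower in VWAT than in SWAT (log2 difference -1.72 ± 0.193, edgeR adjusted p = 1.68e-05) and on HFD 2.35-fold lower (log2 difference -1.23 ± 0.188, edgeR adjusted p = 0.000237).

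The other 2 D-type cyclins had no call with diet. Ccnd2 was at 211, 204 and 192 CPM in VWAT_SD, 192, 203 and 239 in VWAT_HFD, 176, 167 and 134 in SWAT_SD and 166, 161 and 203 in SWAT_HFD. Ccnd3 was at 87.8, 87.4 and 96.2 CPM in VWAT_SD, 95.1, 99.2 and 97.2 in VWAT_HFD, 89.9, 89.0 and 91.8 in SWAT_SD and 91.0, 83.6 and 91.9 in SWAT_HFD. Their diet groups overlapped in both depots, and the 95% interval of the log2 change of Ccnd3 was -0.06 to 0.27 in VWAT and -0.19 to 0.14 in SWAT. For Ccnd2 it was -0.21 to 0.33 and -0.12 to 0.42. Ccnd2 did not pass between the depots on SD (log2 difference 0.34 ± 0.126, edgeR adjusted p = 0.0613), but with the pools of mice as a block it did (log2 difference 0.35, edgeR adjusted p = 0.0141).

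Per length, Ccnd3 and Ccnd2 made up most of the D-type cyclin RNA. Dividing CPM by merged exon length (CPM per kb), Ccnd1 held 4.15 ± 0.763% (SD, n = 3) of the D-type sum in VWAT_SD and 7.54 ± 1.69% in VWAT_HFD. In SWAT_SD it held 13.7 ± 2.12% and in SWAT_HFD 17.7 ± 2.96%. Single libraries ran from 3.63% (VWAT_SD replicate 3) to 19.6% (SWAT_HFD replicate 2). The Ccnd3 share was 52.8 ± 2.64, 51.6 ± 1.54, 52.5 ± 1.87 and 47.8 ± 3.37% in VWAT_SD, VWAT_HFD, SWAT_SD and SWAT_HFD.

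Of their partner kinases, Cdk4 was the abundant member and Cdk6 was barely present. Cdk4 was at 61.2, 59.8 and 68.3 CPM in VWAT_SD, 94.0, 95.5 and 69.2 in VWAT_HFD, 65.2, 65 and 73.6 in SWAT_SD and 74.8, 71.9 and 81.4 in SWAT_HFD. In VWAT replicate 3 on HFD lay just above the highest SD library, and the other HFD libraries well above it. Cdk4 rose 1.37-fold in VWAT (log2 change 0.45 ± 0.118, edgeR adjusted p = 0.0228) and did not pass in SWAT (edgeR adjusted p = 0.559). The VWAT call ended without VWAT_SD replicate 1 or 2 or VWAT_HFD replicate 1 or 2 (edgeR adjusted p 0.0729 to 0.122), and the call in the average (1.24-fold) without any of 6 libraries (0.0509 to 0.0686: VWAT_SD 1 and 2, VWAT_HFD 1 and 2, SWAT_SD 1 and 2). Cdk6 was at 0.544, 0.444 and 0.388 CPM in VWAT_SD, 0.522, 0.602 and 0.667 in VWAT_HFD, 0.383, 0.541 and 0.229 in SWAT_SD and 0.201, 0.588 and 0.333 in SWAT_HFD. It passed in 0 of the 6 comparisons. Per kb of exon the mean level of Cdk4 in VWAT_SD was 30.8 CPM per kb and that of Cdk6 0.0398.

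At the entry to S phase, both E-type cyclins, the partners of Cdk2, rose in VWAT. Ccne1 was at 1.53, 1.88 and 1.29 CPM in VWAT_SD, 4.23, 4.78 and 2.58 in VWAT_HFD, 1.22, 0.801 and 1.24 in SWAT_SD and 2.54, 1.89 and 1.89 in SWAT_HFD. Ccne2 was at 1.87, 1.95 and 1.81 CPM in VWAT_SD, 6.84, 7.36 and 2.92 in VWAT_HFD, 1.66, 1.69 and 1.79 in SWAT_SD and 1.74, 2.04 and 2.73 in SWAT_HFD. In VWAT all HFD libraries of both genes lay above all SD libraries, with replicate 3 the lowest of the HFD group. Ccne1 rose 2.47-fold (log2 change 1.30 ± 0.249, edgeR adjusted p = 0.00478) and Ccne2 3.05-fold (log2 change 1.61 ± 0.28, edgeR adjusted p = 0.00295).

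In SWAT the 2 E-type cyclins did not pass. Ccne1 there was 1.92-fold higher on HFD with no overlap (log2 change 0.94 ± 0.279, edgeR adjusted p = 0.136). Ccne2 was 1.3-fold higher with overlapping groups (log2 change 0.38 ± 0.305, edgeR adjusted p = 0.606). On HFD both were higher in VWAT than in SWAT, Ccne2 2.57-fold (log2 difference 1.36 ± 0.287, edgeR adjusted p = 0.00302) and Ccne1 1.87-fold (log2 difference 0.91 ± 0.255, edgeR adjusted p = 0.0182). The depot call of Ccne1 ended without VWAT_HFD replicate 1 or 2 or SWAT_HFD replicate 2 or 3 (edgeR adjusted p 0.0577 to 0.0821), and that of Ccne2 did not end without any single library.

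Cyclin A2, which acts with Cdk2 in S phase and with Cdk1 in G2, had the largest change of the S phase group. Ccna2 was at 2.16, 2.92 and 2.07 CPM in VWAT_SD, 21.2, 35.4 and 8.54 in VWAT_HFD, 0.937, 1.52 and 2.48 in SWAT_SD and 7.02, 9.84 and 9.97 in SWAT_HFD. The diet groups did not overlap in either depot. It rose 9.15-fold in VWAT (log2 change 3.19 ± 0.428, edgeR adjusted p = 0.000956) and 5.92-fold in SWAT (log2 change 2.56 ± 0.466, edgeR adjusted p = 0.0276). On HFD it was 2.4-fold higher in VWAT than in SWAT with overlapping libraries (log2 difference 1.26 ± 0.395, edgeR adjusted p = 0.0306), a call that ended without VWAT_HFD replicate 1 or 2 or any SWAT_HFD library (edgeR adjusted p 0.0582 to 0.189). On SD it passed neither way (log2 difference 0.63 ± 0.48, edgeR adjusted p = 0.383).

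Its kinase Cdk2 had no call in the 6 comparisons. Cdk2 was at 15.2, 16.6 and 14.8 CPM in VWAT_SD, 18.1, 21.2 and 18.1 in VWAT_HFD, 17.3, 19.8 and 16.4 in SWAT_SD and 17.7, 20.1 and 20.0 in SWAT_HFD. It did not pass in VWAT (log2 change 0.30 ± 0.101, edgeR adjusted p = 0.0636), although the groups did not overlap, nor in SWAT (95% interval of the log2 change -0.11 to 0.34). Cdc25a, the phosphatase that activates Cdk2, was at 3.89, 3.62 and 4.13 CPM in VWAT_SD, 5.36, 6.78 and 4.54 in VWAT_HFD, 5.26, 5.48 and 6.60 in SWAT_SD and 8.16, 7.52 and 7.95 in SWAT_HFD. Cdc25a rose 1.43-fold in VWAT (log2 change 0.52 ± 0.15, edgeR adjusted p = 0.0344), a call that ended without any of VWAT_SD replicates 1 to 3 or VWAT_HFD replicate 1 or 2 (edgeR adjusted p 0.0681 to 0.182). Averaged over depots it rose 1.4-fold (log2 change 0.49 ± 0.107, edgeR adjusted p = 0.00798). It was 1.48-fold lower in VWAT than in SWAT on SD (log2 difference -0.56 ± 0.152, edgeR adjusted p = 0.0141) and 1.41-fold lower on HFD (log2 difference -0.50 ± 0.15, edgeR adjusted p = 0.0248), the opposite direction to Ccne1, Ccne2 and Ccna2 on HFD. The SD call ended without VWAT_SD replicate 2 or SWAT_SD replicate 3 (edgeR adjusted p 0.0542 to 0.0572), and the HFD call without VWAT_HFD replicate 1 or 3 or any SWAT_HFD library (0.0536 to 0.0739).

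The G2/M genes changed most. Their median log2 change with HFD was 3.21 in VWAT and 2.58 in SWAT, against -0.02 and 0.00 over all genes tested. Cdk1, the mitotic kinase, was at 1.53, 2.29 and 1.24 CPM in VWAT_SD, 21.1, 26.4 and 5.53 in VWAT_HFD, 0.478, 0.844 and 1.51 in SWAT_SD and 5.22, 6.41 and 6.89 in SWAT_HFD. HFD and SD libraries did not overlap in either depot. Cdk1 rose 10.6-fold in VWAT (log2 change 3.40 ± 0.483, edgeR adjusted p = 0.00116) and 7.29-fold in SWAT (log2 change 2.87 ± 0.549, edgeR adjusted p = 0.0314).

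Its B-type cyclins had the same order of group means, from VWAT_HFD down to SWAT_SD. Ccnb1 was at 1.16, 1.48 and 0.978 CPM in VWAT_SD, 12.3, 18.2 and 3.53 in VWAT_HFD, 0.421, 0.671 and 1.10 in SWAT_SD and 2.88, 5.88 and 4.62 in SWAT_HFD. Ccnb2 was at 2.28, 2.05 and 1.46 CPM in VWAT_SD, 18.9, 28.8 and 4.95 in VWAT_HFD, 0.746, 0.909 and 1.28 in SWAT_SD and 5.75, 7.77 and 5.10 in SWAT_HFD. No HFD library of either gene fell to the level of an SD library of its depot. Ccnb1 rose 9.44-fold in VWAT (log2 change 3.24 ± 0.492, edgeR adjusted p = 0.00151) and 6.77-fold in SWAT (log2 change 2.76 ± 0.556, edgeR adjusted p = 0.0376). Ccnb2 rose 9.07-fold in VWAT (log2 change 3.18 ± 0.476, edgeR adjusted p = 0.00141) and 6.64-fold in SWAT (log2 change 2.73 ± 0.541, edgeR adjusted p = 0.0338).

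The Cdc25 phosphatases that switch Cdk1 on, and the F-box cyclin F, which marks proteins for degradation and activates no CDK, also rose in VWAT. Cdc25c was at 0.340, 0.106 and 0.185 CPM in VWAT_SD, 1.95, 3.41 and 0.774 in VWAT_HFD, 0.153, 0.152 and 0.275 in SWAT_SD and 0.669, 1.08 and 1.08 in SWAT_HFD. Cdc25b was at 5.08, 5.73 and 6.66 CPM in VWAT_SD, 12.4, 16.4 and 6.20 in VWAT_HFD, 6.77, 7.88 and 8.66 in SWAT_SD and 11.7, 14.2 and 10.3 in SWAT_HFD. Ccnf was at 0.340, 0.444 and 0.388 CPM in VWAT_SD, 1.57, 2.75 and 1.01 in VWAT_HFD, 0.765, 0.563 and 0.550 in SWAT_SD and 1.00, 1.08 and 1.06 in SWAT_HFD. VWAT_HFD replicate 3 overlapped the SD libraries for Cdc25b, and for the other 2 genes the diet groups of VWAT were apart.

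Cdc25c rose 9.42-fold in VWAT (log2 change 3.24 ± 0.512, edgeR adjusted p = 0.00175), Ccnf 4.54-fold (log2 change 2.18 ± 0.332, edgeR adjusted p = 0.00152) and Cdc25b 2-fold (log2 change 1.00 ± 0.264, edgeR adjusted p = 0.0234). The Cdc25b call ended without any of VWAT_SD replicates 1 to 3 or VWAT_HFD replicate 1 or 2 (edgeR adjusted p 0.0525 to 0.137). In SWAT the diet groups of all 3 were apart, but none passed, with Cdc25c 5.41-fold higher (log2 change 2.44 ± 0.596, edgeR adjusted p = 0.0745), Ccnf 1.65-fold higher (log2 change 0.73 ± 0.348, edgeR adjusted p = 0.35) and Cdc25b 1.56-fold higher (log2 change 0.64 ± 0.269, edgeR adjusted p = 0.29). Averaged over depots, Cdc25c rose 7.14-fold (log2 change 2.84 ± 0.391, edgeR adjusted p = 0.000526), Ccnf 2.74-fold (log2 change 1.45 ± 0.24, edgeR adjusted p = 0.00153) and Cdc25b 1.77-fold (log2 change 0.82 ± 0.188, edgeR adjusted p = 0.01).

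**Figure D4:**
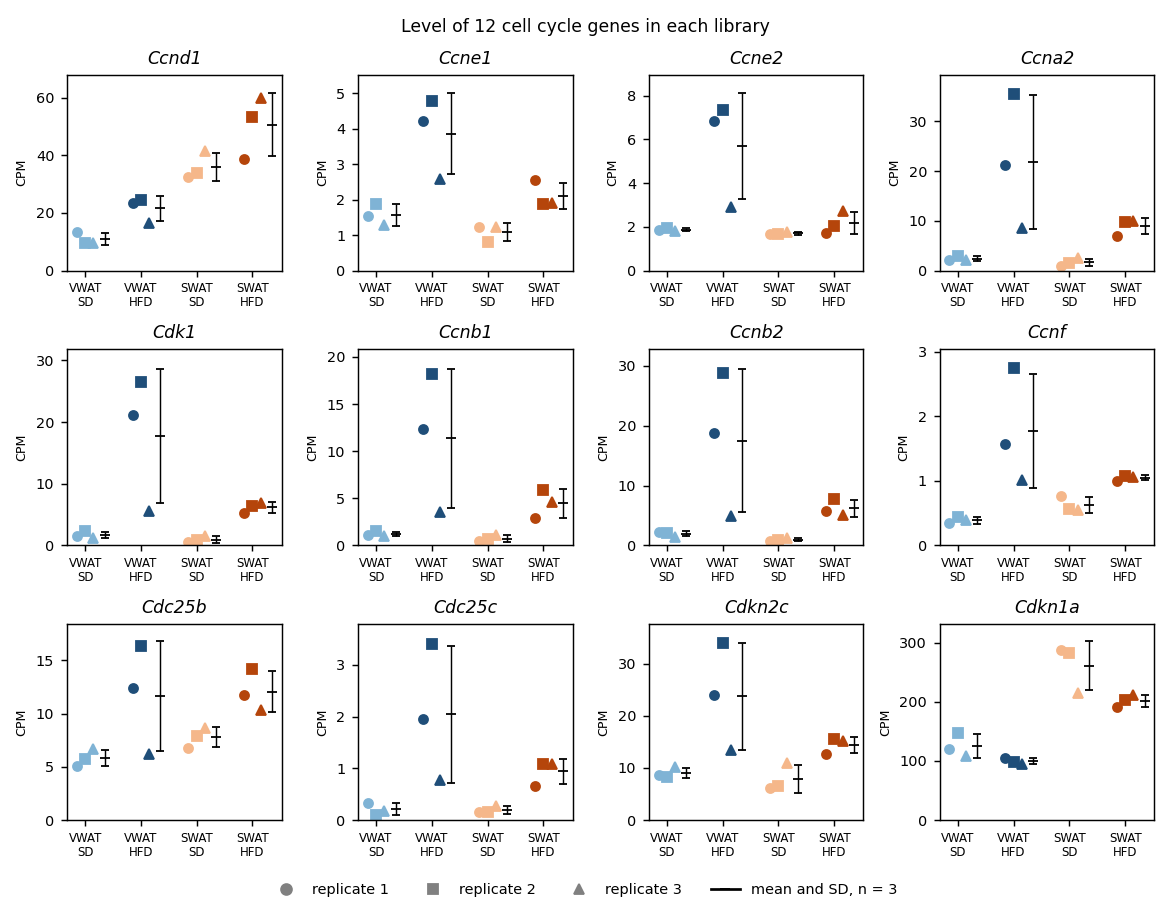
Level of 12 cell cycle genes in every library. The vertical axes are CPM from 0, symbols are replicates 1 to 3 of the 4 groups, and the bar beside each group is the mean and SD of 3 libraries. In VWAT_HFD the triangle of replicate 3 is the lowest for every gene drawn, and Cdkn1a is highest in SWAT_SD.

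The VWAT_HFD libraries spread widely for these genes. Replicate 3 was the lowest of the group in 6 of 6 G2/M genes and 4 of 5 G1/S and S phase genes, and replicate 2 was the highest in 6 of 6 and 5 of 5. Without replicate 3 the VWAT rises were larger, 14.2-fold for Cdk1, 12.7-fold for Ccnb1, 12.3-fold for Ccnb2, 12.2-fold for Cdc25c and 11.9-fold for Ccna2. The endothelial genes Pecam1, Cdh5 and Kdr were also lowest in VWAT_HFD replicate 3, with Pecam1 at 8.66, 5.70 and 1.44 CPM. Tek (190, 173 and 181 CPM) and Emcn (1.20, 0.502 and 0.559) were lowest in replicate 2. Over the diets these genes overlapped, with Pecam1 at 5.14, 6.01 and 2.38 CPM in VWAT_SD. Of 5 endothelial markers 0 passed with diet in either depot, and their sum, most of it Tek, ran from 192 to 239 CPM on SD and from 186 to 218 on HFD in VWAT. The sum of 7 leukocyte markers ran from 10.8 to 16.7 CPM on SD and from 7.49 to 10.2 on HFD, with 1 of 6 tested, Cd14, lower. Of 5 mural markers in VWAT, Myh11 fell 2.68-fold (log2 change -1.42 ± 0.343, edgeR adjusted p = 0.0154) and Cspg4 rose 1.71-fold (log2 change 0.77 ± 0.241, edgeR adjusted p = 0.047), and of 8 precursor and gate markers Thy1 rose 2.49-fold and Itgb1 1.28-fold. The part of these other cells in the spread was not tested.

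Each of the 5 calls in SWAT ended without any 1 of the 6 SWAT libraries. SWAT_HFD replicate 2, with the high leukocyte markers, was the highest of its group in 5 of 6 G2/M genes. Without it Cdk1 was 7.15-fold higher on HFD (edgeR adjusted p = 0.121), Ccnb1 5.72-fold (0.157), Ccnb2 5.73-fold (0.144) and Ccna2 5.62-fold (0.109). The sizes thus stayed close and the calls ended. SWAT_HFD replicates 1 and 3 had Cdk1 at 5.22 and 6.89 CPM, above the SWAT_SD libraries, with Ptprc at 0.201 and 0.499 CPM, within the range of SWAT_SD (0.183 to 0.536). In both libraries Csf1r (4.15 and 4.39 CPM) and Lyz2 (2.88 and 4.18) lay above every SWAT_SD library (at most 3.62 and 2.85). Cd14, Cd68 and Cd79a did not, and Cd3e did in replicate 3 only. The limma voom test called 0 members in SWAT, with 15 at an unadjusted p under 0.05, where edgeR had 16. The share of all genes at that unadjusted threshold is not given here, so the 15 and 16 are no result about the members. By adjusted p, limma voom called 12 of all genes in SWAT and edgeR 159. Of the endothelial markers, none of which passed, Cdh5 was at 4.65, 4.07 and 1.01 CPM in SWAT_SD and 4.48, 9.25 and 6.47 in SWAT_HFD. The sum of the 5 endothelial markers, most of it Tek, ran from 215 to 313 CPM in SWAT_SD and from 241 to 309 in SWAT_HFD. Tek was 1.02-fold higher on HFD in SWAT. Pecam1 was 1.99-fold, Cdh5 2.01-fold, Kdr 2.08-fold and Emcn 1.8-fold higher. Summed leukocyte markers ran from 12.0 to 15.0 CPM in SWAT_SD. The part of these cells in the SWAT rises was not tested.

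Among the CIP/KIP inhibitors, Cdkn1a, a target of p53 that can arrest cells, differed between the depots and fell with diet in the average. Cdkn1a was at 120.1, 147 and 108 CPM in VWAT_SD, 105, 99.0 and 95.0 in VWAT_HFD, 288, 282 and 214 in SWAT_SD and 191, 202 and 211 in SWAT_HFD. Every SWAT library lay above every VWAT library, and within each depot every HFD library lay below every SD library. It was 2.09-fold lower in VWAT on SD (log2 difference -1.06 ± 0.131, edgeR adjusted p = 3.98e-05) and 2.02-fold lower on HFD (log2 difference -1.02 ± 0.131, edgeR adjusted p = 5.82e-05). With diet it did not pass in VWAT (log2 change -0.33 ± 0.13, edgeR adjusted p = 0.104) or SWAT (log2 change -0.37 ± 0.13, edgeR adjusted p = 0.205). Averaged over depots it fell 1.28-fold (log2 change -0.35 ± 0.0919, edgeR adjusted p = 0.0194), a call that ended without VWAT_SD replicate 2 or SWAT_SD replicate 1 or 2 (edgeR adjusted p 0.0506 to 0.0514).

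Cdkn1b and Cdkn1c, the other 2 CIP/KIP inhibitors, had no call in any of the 6 comparisons in edgeR with all libraries. Cdkn1b was at 98.4, 92.9 and 92.1 CPM in VWAT_SD, 114, 113 and 98.0 in VWAT_HFD, 106, 106 and 105 in SWAT_SD and 119.8, 122 and 100.3 in SWAT_HFD. Its 95% interval of the log2 change with HFD was -0.01 to 0.40 in VWAT and -0.09 to 0.31 in SWAT. Cdkn1c, an imprinted gene, was at 33.2, 36.1 and 44.8 CPM in VWAT_SD, 31.3, 21.5 and 23.8 in VWAT_HFD, 25.6, 35.7 and 30.3 in SWAT_SD and 37.6, 25.7 and 23.8 in SWAT_HFD. Its VWAT_HFD libraries lay below its VWAT_SD libraries, with a value just short of the threshold (log2 change -0.57 ± 0.19, edgeR adjusted p = 0.0576). Cdkn1c was called lower in VWAT by DESeq2 (log2 change -0.56, DESeq2 adjusted p = 0.033) and limma voom (-0.58, limma voom adjusted p = 0.0455).

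The INK4 inhibitors went separate ways. Cdkn2c, which binds Cdk4 and Cdk6, was at 8.57, 8.34 and 10.1 CPM in VWAT_SD, 23.9, 34.0 and 13.4 in VWAT_HFD, 6.20, 6.58 and 11 in SWAT_SD and 12.6, 15.5 and 15.1 in SWAT_HFD. Its diet groups were apart in both depots. It rose 2.64-fold in VWAT (log2 change 1.40 ± 0.277, edgeR adjusted p = 0.00587), was 1.87-fold higher in SWAT without passing (log2 change 0.90 ± 0.288, edgeR adjusted p = 0.164), and rose 2.22-fold in the average (log2 change 1.15 ± 0.2, edgeR adjusted p = 0.00207). It was thus an inhibitor that rose together with the cyclins.

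Cdkn2b had the largest fold between the depots of the 47 members tested. Cdkn2b was at 3.52, 3.28 and 4.82 CPM in VWAT_SD, 2.96, 3.97 and 3.96 in VWAT_HFD, 0.650, 0.671 and 0.550 in SWAT_SD and 0.802, 0.433 and 0.312 in SWAT_HFD. All VWAT libraries lay above all SWAT libraries. It was 6.09-fold higher in VWAT on SD (log2 difference 2.61 ± 0.263, edgeR adjusted p = 6.22e-06) and 7.94-fold higher on HFD (log2 difference 2.99 ± 0.29, edgeR adjusted p = 4.41e-06). With diet it had no call in VWAT (95% interval -0.58 to 0.39 on the log2 scale) or SWAT (-1.19 to 0.24).

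The last 2 INK4 genes were scarce. Cdkn2d was at 0.901, 0.741 and 0.628 CPM in VWAT_SD, 0.725, 0.923 and 0.753 in VWAT_HFD, 0.842, 0.693 and 0.550 in SWAT_SD and 0.936, 0.928 and 0.770 in SWAT_HFD, with no call. Cdkn2a, a locus linked to senescence, had 5, 5 and 6 reads in VWAT_SD, 20, 26 and 2 in VWAT_HFD, 1, 0 and 0 in SWAT_SD and 3, 8 and 5 in SWAT_HFD. It was the only member that the filter on low counts removed. Tested without the filter, it passed in the average over depots (log2 change 2.78, edgeR adjusted p = 0.016) and in neither depot alone (0.122 in VWAT and 0.155 in SWAT). With so few reads its level was not measured well.

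Of the 13 transcriptional members 1, Cdk7, passed with diet. The kinase of TFIIH, Cdk7, which also activates other CDKs, was at 36.3, 37.8 and 38.4 CPM in VWAT_SD, 46.3, 45.3 and 40.8 in VWAT_HFD, 32.4, 29.1 and 29.6 in SWAT_SD and 40.9, 39.5 and 38.4 in SWAT_HFD. Its diet groups were apart in both depots. It rose 1.3-fold in SWAT (log2 change 0.38 ± 0.0796, edgeR adjusted p = 0.0436), was 1.18-fold higher in VWAT without passing (log2 change 0.24 ± 0.0781, edgeR adjusted p = 0.0578) and rose 1.24-fold in the average (log2 change 0.31 ± 0.0558, edgeR adjusted p = 0.00273). On SD it was 1.23-fold higher in VWAT than in SWAT (log2 difference 0.30 ± 0.0788, edgeR adjusted p = 0.0116), a call that ended without SWAT_SD replicate 2 (edgeR adjusted p = 0.0576). Its SWAT call ended without any SWAT or VWAT_SD library (edgeR adjusted p 0.0588 to 0.193).

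Cdk8, a kinase of the Mediator complex, differed between the depots on both diets. Cdk8 was at 57.3, 61.6 and 55.6 CPM in VWAT_SD, 51.7, 55.5 and 64.6 in VWAT_HFD, 22.9, 20.0 and 27.0 in SWAT_SD and 21.3, 20.4 and 20.4 in SWAT_HFD. The lowest VWAT library was far above the highest SWAT library. It was 2.51-fold higher in VWAT on SD (log2 difference 1.33 ± 0.113, edgeR adjusted p = 1.29e-06) and 2.77-fold higher on HFD (log2 difference 1.47 ± 0.115, edgeR adjusted p = 6.12e-07), with no call for diet. Its paralog Cdk19 passed in neither depot comparison, with 95% intervals of -0.28 to 0.31 on SD and -0.55 to 0.04 on HFD, and their cyclin, Ccnc, had no call either (-0.08 to 0.36 and -0.11 to 0.33). Without VWAT_HFD replicate 3, Cdk19 passed as lower in VWAT than in SWAT on HFD (log2 difference -0.41, edgeR adjusted p = 0.023). Cdk19 was lower on HFD in VWAT without passing (log2 change -0.41 ± 0.135, edgeR adjusted p = 0.0568).

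The other transcriptional genes, Ccnc, Ccnh, Ccnk, Ccnl1, Ccnl2, Ccnt1, Ccnt2, Cdk9, Cdk12 and Cdk13, passed in 0 of the 6 comparisons with all libraries. Without VWAT_HFD replicate 3, Ccnt2 (edgeR adjusted p = 0.000214) and Cdk9 (0.0199) fell in the average, as they did in VWAT. They pair as Ccnh with Cdk7, Ccnt1 and Ccnt2 with Cdk9, and Ccnk with Cdk12 and Cdk13. The median log2 change of the 13 transcriptional genes was -0.02 in VWAT and -0.08 in SWAT, and their changes ran from -0.41 to 0.24 and from -0.23 to 0.38. With the pools of mice as a block, Ccnk passed as lower in VWAT on SD (log2 difference -0.24, edgeR adjusted p = 0.048).

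Of the 12 atypical and other members, Cdk17 and Cdk16, kinases of the PCTAIRE family, differed between the depots in opposite directions. Cdk17 was at 23.5, 22.4 and 22.6 CPM in VWAT_SD, 26.2, 28.4 and 29.2 in VWAT_HFD, 11.7, 10.9 and 11.1 in SWAT_SD and 12.8, 14.3 and 13.9 in SWAT_HFD. Cdk16 was at 95.4, 99.3 and 95.1 CPM in VWAT_SD, 125, 120.5 and 99.5 in VWAT_HFD, 127, 138 and 131 in SWAT_SD and 159, 148 and 131 in SWAT_HFD. On each diet the depots did not overlap for either gene. Cdk17 was 2.04-fold higher in VWAT on SD (log2 difference 1.03 ± 0.0816, edgeR adjusted p = 6.6e-07) and 2.04-fold higher on HFD (log2 difference 1.03 ± 0.0818, edgeR adjusted p = 7.13e-07). Cdk16 was 1.36-fold lower in VWAT on SD (log2 difference -0.45 ± 0.101, edgeR adjusted p = 0.00487) and 1.27-fold lower on HFD (log2 difference -0.34 ± 0.101, edgeR adjusted p = 0.0233), and the latter call ended without VWAT_HFD replicate 3 or SWAT_HFD replicate 1 or 2 (edgeR adjusted p 0.0586 to 0.11). With diet Cdk17 rose 1.22-fold in VWAT (log2 change 0.29 ± 0.0788, edgeR adjusted p = 0.0272) and 1.22-fold in the average (log2 change 0.29 ± 0.0574, edgeR adjusted p = 0.00476). The VWAT call ended without any VWAT_SD library or VWAT_HFD replicate 2 (edgeR adjusted p 0.0594 to 0.114).

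Ccno and Ccni were the members of this group that fell in the average over depots. Ccno, known from multiciliated cells, was at 5.32, 6.01 and 5.65 CPM in VWAT_SD, 3.77, 3.25 and 4.97 in VWAT_HFD, 5.03, 5.09 and 3.25 in SWAT_SD and 3.41, 1.98 and 2.66 in SWAT_HFD. It fell 1.56-fold (log2 change -0.64 ± 0.155, edgeR adjusted p = 0.0127). Ccni was at 246, 239.7 and 253 CPM in VWAT_SD, 229.5, 217 and 207 in VWAT_HFD, 246, 261 and 253 in SWAT_SD and 229.7, 225 and 220.0 in SWAT_HFD, and its HFD libraries lay below its SD libraries in both depots. It fell 1.13-fold (log2 change -0.17 ± 0.0556, edgeR adjusted p = 0.0436), and its call ended without any library but VWAT_HFD replicate 1 or 3 (edgeR adjusted p 0.0602 to 0.106). The other 8, Ccng1, Ccng2, Ccnj, Ccny, Cdk5, Cdk10, Cdk14 and Cdk20, passed in none of the 6 comparisons.

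The change with diet had the same sign in both depots for 40 of the 47 members (85.1%), against 73.6% of all genes tested. Across the 47 members Pearson's r of the 2 changes was 0.96, and it was 0.94 over the 11 G1/S, S and G2/M genes and 0.82 over the other 36, beside 0.57 over all 14266 genes. Genes are not independent replicates, and depots may share mice, so no p is given. The change was larger in VWAT for all 11, for 19 of the other 36 and for 9255 of the 14266 genes. The difference of the diet effects itself passed for 0 of 47 members and for 0% of all genes. At an unadjusted p under 0.05 there were 2 members, Ccnf (log2 difference 1.46 ± 0.48, edgeR adjusted p = 0.537) and Ccne2 (log2 difference 1.23 ± 0.412, edgeR adjusted p = 0.542). DESeq2 called 0 members and 33 genes in all, and limma voom 0 members, with 2 and 1 members at an unadjusted p under 0.05. The share of all genes at an unadjusted p under 0.05 is not given here, so these counts are no result about the members. Without VWAT_HFD replicate 3, Ccne2 passed (log2 difference of the changes 1.52, edgeR adjusted p = 0.0177). The 95% interval of the difference was -1.04 to 2.12 for Cdk1 and -1.13 to 2.09 for Ccnb1, so for these genes neither an equal change in the depots nor a change several times larger in VWAT lay outside the interval.

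**Figure D5:**
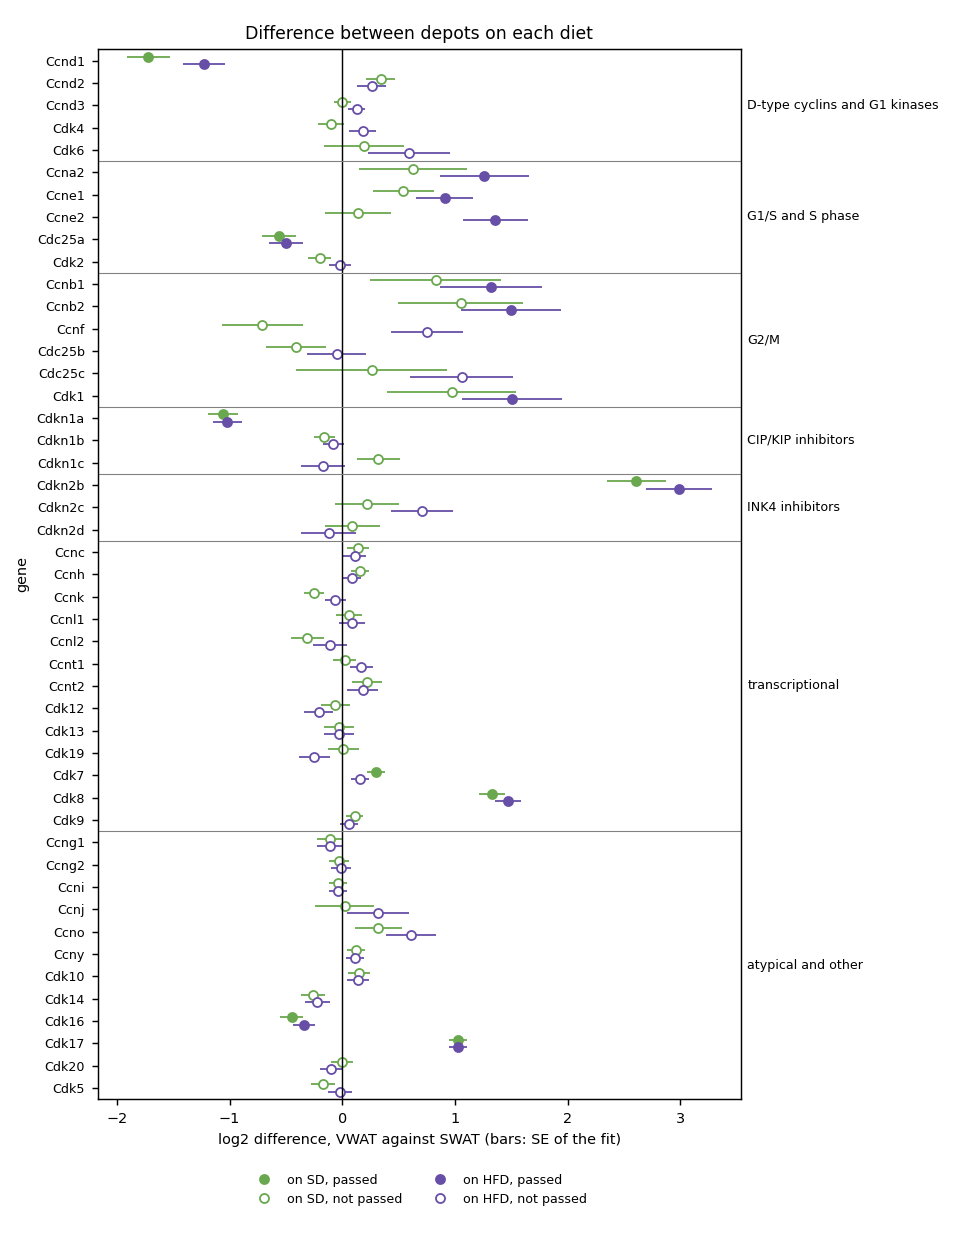
Difference between the depots on each diet for the 47 genes tested. The horizontal axis is the log2 difference of VWAT against SWAT with bars of 1 standard error, green for SD and purple for HFD, and filled points passed the test. Cdkn2b, Cdk8 and Cdk17 lie to the right and Ccnd1 and Cdkn1a to the left on both diets, and Cdk1, Ccnb1 and Ccnb2 are filled for HFD and open for SD.

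On HFD 3 of the 6 G2/M genes were higher in VWAT than in SWAT. Cdk1 was 2.84-fold higher (log2 difference 1.51 ± 0.445, edgeR adjusted p = 0.0231), Ccnb2 2.82-fold (log2 difference 1.50 ± 0.446, edgeR adjusted p = 0.024) and Ccnb1 2.49-fold (log2 difference 1.32 ± 0.452, edgeR adjusted p = 0.0463), and for each the libraries of the depots overlapped, with VWAT_HFD replicate 3 within the SWAT_HFD range for Cdk1 and Ccnb1 and below it for Ccnb2. Without VWAT_HFD replicate 3 the differences were 3.79-fold, 3.83-fold and 3.31-fold. Ccnf (log2 difference 0.75 ± 0.318, edgeR adjusted p = 0.103) and Cdc25c (log2 difference 1.06 ± 0.457, edgeR adjusted p = 0.108) did not pass with all libraries and passed without that replicate (edgeR adjusted p = 0.0112 and 0.00722). Leaving out other libraries ended the call of Cdk1 for 5 of the 12 (edgeR adjusted p 0.0521 to 0.116: VWAT_HFD replicates 1 and 2 and SWAT_HFD replicates 1 to 3). It ended that of Ccnb2 for VWAT_HFD replicates 1 and 2 and SWAT_HFD replicates 1 and 3 (0.057 to 0.14), and that of Ccnb1 for 10 of the 12, all but VWAT_HFD replicate 3 and SWAT_SD replicate 3 (0.0517 to 0.241). On SD none of the 6 G2/M genes passed between the depots, but Ccnb2 did without VWAT_HFD replicate 3 (log2 difference 1.06, edgeR adjusted p = 0.0126) and with only the 6 SD libraries (1.04, 0.015), and Cdk1 without that replicate (0.99, 0.0391).

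By contrast, the depot differences of Ccnd1, Cdkn1a, Cdkn2b, Cdk8 and Cdk17 passed on both diets under every alternative that gave a value. Genes listed as markers of other cells also differed between the depots. Summed mesothelial markers were 103 to 130 CPM in the VWAT libraries against 2.33 to 4.64 in SWAT, with 4 of 5 markers (Msln, Upk3b, Upk1b and Wt1) higher in VWAT on both diets and Krt19 lower. Most of the VWAT sum was Wt1, at 97.8 to 128 CPM. Msln was at 0.323 to 1.62 CPM there, Upk3b at 0.817 to 3.39 and Upk1b at 0.0860 to 0.482. Summed mural markers were 92.4 to 136 CPM against 13.7 to 26.0, with Acta2, Myh11 and Des higher in VWAT on both diets and Cspg4 lower on SD. Most of the VWAT sum was Des, at 65.6 to 92.6 CPM, and Rgs5 passed on neither diet (edgeR adjusted p = 0.311 on SD and 0.616 on HFD). On HFD 4 of 6 leukocyte markers (Ptprc, Cd14, Csf1r and Cd79a) and the endothelial marker Tek were lower in VWAT, and on SD none of them passed. For Ptprc and Cd79a, SWAT_HFD replicate 2 stood far above the other SWAT_HFD libraries. Ptprc was at 0.201, 6.93 and 0.499 CPM in SWAT_HFD and 0.286, 0.401 and 0.129 in VWAT_HFD. Cd79a was at 1.00, 4.05 and 0.957 CPM in SWAT_HFD and 0.623, 0.602 and 0.860 in VWAT_HFD. Precursor and gate markers differed too, with Cd24a 5.38-fold, Dpp4 2.5-fold, Ly6a 2.1-fold, Thy1 1.99-fold and Cd34 1.29-fold lower in VWAT on SD, and all but Thy1 lower on HFD. Itgb1 was 1.24-fold higher in VWAT on HFD (log2 difference 0.31, edgeR adjusted p = 0.0327), and Pdgfra and Pdgfrb passed on neither diet. Msln was at 0 counts in SWAT_SD replicates 1 and 3 and SWAT_HFD replicate 1. The part of these cells in the depot differences was not tested.

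Other genes of the CDK pathway were read from a list of 38, all of them tested. In VWAT 10 rose and 2 fell, where 15.6% of all genes passed, and in SWAT 1 rose, where 1.11% did. Their median log2 change was 0.12 in VWAT and -0.01 in SWAT, beside -0.02 and 0.00 over all genes tested. Among regulators of CDK activity, Cks2, a small subunit of CDK complexes, rose 6.15-fold in VWAT (log2 change 2.62 ± 0.398, edgeR adjusted p = 0.00151) and Cdkn3, a phosphatase of CDKs, 7.93-fold (log2 change 2.99 ± 0.534, edgeR adjusted p = 0.00341). Cks1b also rose, while the inhibitory kinases Wee1 (edgeR adjusted p = 0.642) and Pkmyt1 (0.0695) did not pass. Of 7 RB and E2F genes, Rbl1, E2f1, E2f2 and E2f3 rose in VWAT and Rbl2 fell, with E2f2 at 0.646, 0.550 and 0.757 CPM in VWAT_SD and 2.31, 2.97 and 1.68 in VWAT_HFD, a 3.54-fold rise (log2 change 1.83 ± 0.294, edgeR adjusted p = 0.00194). The HFD libraries of E2f2 lay above all SD libraries.

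Of 7 genes of protein degradation, Skp2 and Cdc20 rose in VWAT. Cdc20, the activator of the anaphase-promoting complex, was the pathway gene that also rose in SWAT, with 1.13, 1.13 and 2.29 CPM in SWAT_SD and 5.95, 8.51 and 7.22 in SWAT_HFD (5.14-fold, log2 change 2.36 ± 0.456, edgeR adjusted p = 0.0321). Of 10 genes upstream of inhibitors and D cyclins, Gadd45b rose 1.43-fold and Gadd45g fell 1.53-fold in VWAT, while Trp53 (edgeR adjusted p = 0.179) and Myc (0.206) did not pass. Between the depots, 2 of the 38 were higher and 4 lower in VWAT on SD, and 4 higher and 4 lower on HFD, where 25.7% and 26.8% of all genes passed, with E2f3 and Gadd45b higher and E2f1, Btg1 and Gadd45g lower on both.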

How the data were processed

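The values the authors deposited are raw counts of reads per gene, in 1 table. Reads were aligned with TopHat to mm9 and counted with HTSeq, per the submitters' processing notes; versions, annotation and the strand setting are not given in the sources used here, so overlapping and antisense genes and near-identical copies are uncertain. Rows that name no gene (reads in no gene, in several, or not uniquely aligned) took 3.53 to 5.57%, 1.71 to 1.95% and 14.98 to 20.81% and were left out. The libraries held 17630284 to 56094076 counts on genes, mitochondrial genes took 1.11 to 2.15%, and TMM factors were 0.825 to 1.139.

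Counts of 12 libraries in 4 groups were fitted in 1 edgeR quasi-likelihood model (version 4.0.16, R 4.3.3; filterByExpr kept 14266 genes and removed 132; robust, prior degrees of freedom 5.01), with Benjamini-Hochberg adjustment over all genes tested. A fit on simulated counts was checked beforehand. The 95% intervals are from the same fit. An exact test of 3 against 3 cannot go below a p of 0.1 and was not used. P-values measure the spread between pools of 3 mice. In the average over depots, VWAT and SWAT libraries count as separate pools, which they may not be.

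The genes, the lists and the tests were chosen with earlier results of these data known. Levels in every library are given for the cell cycle cyclins, kinases, phosphatases and inhibitors, and for other members that passed a diet comparison, or a depot comparison with at least 5 CPM and no overlap. Promoter windows are RefSeq's on GRCm38.p6; exon lengths are GENCODE M21's on GRCm38, another build than the counts'. Protein sequences were not used here.

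Replicate numbers may mark the same mice in both depots. Same-numbered SD libraries of the depots deviated together from their group means (correlations 0.177, 0.178 and 0.398). Unlike-numbered SD pairs ran from -0.298 to 0.157. Among them VWAT_SD replicate 1 with SWAT_SD replicate 2 had 0.09, and VWAT_SD replicate 2 with SWAT_SD replicate 1 had 0.157. Only replicate 3 thus clearly deviated together with its own number and not with the others, and whether the numbers mark shared mice was not tested. A fit with pools as a block is printed beside the SD depot results it changes. Alternatives were DESeq2 size factors, library size alone, no filter, a mean of at least 5 CPM, DESeq2 (1.42.0), limma voom (3.58.1), only the 6 libraries compared, both blocks, and each library left out.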

Additional observations from a re-analysis of the deposited data

How the results depend on the processing

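Of the calls of members, 10 of 14 in VWAT, 0 of 5 in SWAT, 13 of 18 in the average over depots, 5 of 8 between the depots on SD and 6 of 13 on HFD passed under every alternative that gave a value. Requiring a mean of 5 CPM, which tests fewer genes, left 9 calls in VWAT and 2 in SWAT, with 1621 and 54 genes called in all. In SWAT limma voom left 0, with 12 genes called in all. With library size as the only scaling, 15 members passed between the depots on SD and 29 on HFD, with 5397 and 6954 genes in all. With only the 6 libraries compared 13 and 7 members passed, with 4243 and 2784 genes in all. With only 6, fewer libraries estimate the spread, and the cause was not tested. Ccng2 (log2 difference 0.28) and Ccni (0.24) turned to higher in VWAT on HFD, and passed, with library size as the only scaling. Leaving out 1 library gave 10 to 24 members in VWAT, 0 to 11 in SWAT, 16 to 28 in the average, 0 to 1 for the difference of the diet effects, 7 to 15 between the depots on SD and 7 to 16 on HFD; calls over all genes ran from 757 to 4266, 0 to 615, 1548 to 4644, 0 to 135, 2865 to 4411 and 2852 to 4366.

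With replicate number as a block, 14, 5, 18 and 0 members passed in VWAT, in SWAT, in the average and for the difference of the effects. Over all genes 2279, 247, 2797 and 1 did. Under this block 8 and 12 members passed between the depots on SD and HFD, with 3663 and 3787 genes in all. With pools as a block 10 and 12 members passed between the depots, with 3916 and 3995 genes in all, and 0 for the difference. In VWAT Cdc25a was lost under the block (edgeR adjusted p = 0.0505) and Cdk2 gained (0.0376). Between the depots on HFD the pool block ended the calls of Ccna2, Ccnb1 and Cdk1 and added Ccnd2 and Ccno. Same-numbered libraries correlated at -0.075, 0.184 and 0.07 between the HFD depots, -0.017, 0.027 and 0.067 between the diets of VWAT and 0.015, 0.123 and 0.125 between those of SWAT, so for these groups the numbers were not taken as pairs and the block values are given only as counts and names. Depth limits Cdkn2a, Cdk6 and Cdc25c, with as few as 0, 3 and 5 reads in a library.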
